A study of Rattus norvegicus with 21 samples.

Results

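In poly(A) RNA, 7 genes of rat astrocytes had no read at all in control cells and some in every library with TDP-43 knockdown: RGD1309870, Coro2a, Plvap, Vstm5, Kcnj6, Nxpe1 and Slc17a3. They were chosen from the counts themselves, as genes with 0 counts in all 3 scrambled siRNA libraries and at least 10 counts in each library of the TDP-43 siRNA group or of the TDP-43 siRNA and ATP group. Of 17311 genes in the table, 3937 had no count in any scrambled library, and 7 of those (0.0404% of all genes) met the rule. RGD1309870, Plvap and Vstm5 entered through both knockdown groups, Coro2a through TDP-43 siRNA without ATP, and Kcnj6, Nxpe1 and Slc17a3 through TDP-43 siRNA with ATP. The difference of either group from the scrambled libraries is therefore what chose the genes, and it is given below as a description, without a test.

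The cells were primary astrocytes from newborn Sprague-Dawley rats, grown for 2 to 3 passages and transfected with small interfering RNA (siRNA). The 9 poly(A) libraries used here were 3 from cells given TDP-43 siRNA and ATP, 3 from cells given TDP-43 siRNA alone, and 3 from cells given scrambled siRNA, the control. ATP is a nucleotide that also signals between cells, and the sources used here give neither its dose nor its duration. Knockdown is labelled only as TDP-43 siRNA, without a rescue group, so off-target effects of the siRNA and effects of losing TDP-43 cannot be told apart. There was also no group given scrambled siRNA and ATP. Where the group with ATP is set against scrambled siRNA, effects of the siRNA and of ATP therefore cannot be told apart. Whether replicates came from separate cultures is not labelled either; the p-values then reflect library-to-library spread alone, part of which may be technical. The other 12 libraries of the series, total RNA before and after immunoprecipitation of double-stranded RNA, enter here only for repeat elements.

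TDP-43, the product of Tardbp, is a nuclear RNA-binding protein that prefers UG-rich sequence. It keeps unsuitable intronic stretches from being spliced into mRNA as cryptic exons, and its loss from the nucleus marks amyotrophic lateral sclerosis and a form of frontotemporal dementia. The genes described here are better known from other tissues than from astrocytes. RGD1309870 is named Spmip7 in RefSeq, a sperm microtubule inner protein, and Plvap encodes the protein of the diaphragms that span endothelial caveolae and fenestrae. Kcnj6 encodes the G protein-gated potassium channel subunit GIRK2, and Slc17a3 an organic anion transporter of the kidney, known mainly from human. Coro2a is an actin-binding coronin, Vstm5 is a membrane protein with an immunoglobulin-like domain, and Nxpe1 belongs to the neurexophilin and PC-esterase domain family.

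All 7 genes are annotated as protein coding, on chromosomes 14 (RGD1309870), 5 (Coro2a), 16 (Plvap), 8 (Vstm5 and Nxpe1), 11 (Kcnj6) and 17 (Slc17a3). To show what lies just before them, the 250 bases ahead of the annotated start are printed for the 3 genes that entered through both groups and for Kcnj6. The sequences are from RefSeq on GRCr8, on the coding strand, 5′ to 3′. RGD1309870 is at chr14:90243837-90244086 on the plus strand, Plvap at chr16:18231280-18231529 on the minus strand, Vstm5 at chr8:20361358-20361607 on the plus strand and Kcnj6 at chr11:47778349-47778598 on the minus strand. Capitals mark matches to the motifs named in the next paragraph.
RGD1309870: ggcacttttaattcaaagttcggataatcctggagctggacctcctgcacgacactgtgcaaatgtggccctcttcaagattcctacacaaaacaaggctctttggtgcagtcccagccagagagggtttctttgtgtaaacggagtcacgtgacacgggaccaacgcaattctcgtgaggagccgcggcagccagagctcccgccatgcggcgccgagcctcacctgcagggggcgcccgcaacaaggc
Plvap: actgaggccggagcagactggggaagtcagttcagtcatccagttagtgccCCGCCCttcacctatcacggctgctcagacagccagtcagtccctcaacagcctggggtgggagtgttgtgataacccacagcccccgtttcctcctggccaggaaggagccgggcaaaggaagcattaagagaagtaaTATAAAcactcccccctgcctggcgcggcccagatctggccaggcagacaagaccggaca
Vstm5: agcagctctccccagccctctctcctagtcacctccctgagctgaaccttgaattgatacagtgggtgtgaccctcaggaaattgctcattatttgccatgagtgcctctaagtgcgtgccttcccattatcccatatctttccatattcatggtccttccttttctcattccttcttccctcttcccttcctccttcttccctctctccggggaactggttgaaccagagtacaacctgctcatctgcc
Kcnj6: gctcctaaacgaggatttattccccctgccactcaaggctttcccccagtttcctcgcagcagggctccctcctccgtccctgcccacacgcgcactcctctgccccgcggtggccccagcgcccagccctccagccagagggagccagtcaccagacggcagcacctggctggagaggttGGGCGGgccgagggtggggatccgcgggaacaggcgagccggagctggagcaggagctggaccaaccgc

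The motifs searched on both strands were the TATA box TATAAA, the CCAAT box CCAAT, the GC box GGGCGG, the cyclic AMP response element TGACGTCA, the AP-1 site TGANTCA, the antioxidant response element core TGACNNNGC and the GT repeat TGTGTG. The antioxidant core can overlap the AP-1 site. The window of Plvap held a TATA box beginning at base -60 from the start and a GC box at -199. Those of Kcnj6 and Nxpe1 held a GC box at -69 and a CCAAT box at -226. The other 4 windows held none of the 7 motifs, and no window of the 7 genes held a GT repeat. Among 27457 rat promoters of the same length, 13.1% held the TATA box, 34.3% the CCAAT box, 32.4% the GC box and 17.1% the GT repeat. The share was 1.70% for the cyclic AMP element, 6.36% for the AP-1 site and 10.2% for the antioxidant core. The windows also differed in base composition. GC content was 69.2% for Kcnj6, 59.2% for Plvap and 57.6% for RGD1309870, and 38.8% for Nxpe1 and 43.6% for Slc17a3, against a median of 52% over all promoters. Kcnj6 had 16 CG dinucleotides and RGD1309870 15, while Vstm5 and Nxpe1 had 2 each; the median promoter had 6. No motif searched was shared by all 7 genes.

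Tardbp itself checks the labels. It had 24.1, 28.8 and 25.6 counts per 1000000 (CPM, on library totals scaled by the TMM method) with TDP-43 siRNA and ATP, 29.6, 20.7 and 24.1 CPM with TDP-43 siRNA, and 179, 158 and 172 CPM with scrambled siRNA, so that all knockdown libraries lay below all scrambled ones. Total gene counts were 26.7, 29.3 and 20.2 M (1000000 counts each) with TDP-43 siRNA and ATP, 23.6, 15.3 and 26.6 M with TDP-43 siRNA, and 40.3, 11.5 and 15.7 M with scrambled siRNA. Summed by group this was 76.3 M with TDP-43 siRNA and ATP, 65.5 M with TDP-43 siRNA and 67.5 M with scrambled siRNA, while the TMM-scaled totals that CPM rest on summed to 81.3 M with TDP-43 siRNA and ATP, 67.3 M with TDP-43 siRNA and 61.9 M with scrambled siRNA, so the scrambled group was the shallowest on that scale. A count of 0 over the scrambled group allows a level of up to 0.0485 CPM (3 counts over the pooled group, covering counting error only), and every fold below that is called "at least" was taken against this limit. A count of 10, the rule's minimum, corresponds to 0.269 CPM in scrambled replicate 1 and to 0.975 CPM in scrambled replicate 2.

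RGD1309870 was far above the others in read number, though counts of different genes also depend on transcript length. It had 193, 175 and 122 counts with TDP-43 siRNA and ATP, 194, 273 and 241 counts with TDP-43 siRNA, and 0 in each scrambled library. Its level was 6.93, 5.54 and 5.59 CPM with TDP-43 siRNA and ATP, and 8.04, 17.5 and 8.77 CPM with TDP-43 siRNA. Every library without ATP lay above every library with it, and TDP-43 siRNA replicate 2 was the highest of all, 2.17-fold above the lowest of its group. The means were 6.02 ± 0.790 CPM with TDP-43 siRNA and ATP, at least 124-fold above the scrambled limit, and 11.4 ± 5.24 CPM with TDP-43 siRNA, at least 236-fold above it (SD, n = 3 each). In bulk RNA, more cells that express a gene and more RNA per cell cannot be told apart, here and in all that follows.

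Plvap, the endothelial diaphragm gene, had 40, 58 and 36 counts with TDP-43 siRNA and ATP, 22, 21 and 21 counts with TDP-43 siRNA, and 0 in each scrambled library. Its level was 1.44, 1.84 and 1.65 CPM with TDP-43 siRNA and ATP, and 0.912, 1.34 and 0.764 CPM with TDP-43 siRNA. The order was the reverse of that of RGD1309870: each library with ATP lay above each library without it. The means were 1.64 ± 0.200 CPM with TDP-43 siRNA and ATP, at least 33.9-fold above the scrambled limit, and 1.01 ± 0.301 CPM with TDP-43 siRNA, at least 20.8-fold above it (SD, n = 3 each).

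Vstm5 had 17, 20 and 13 counts with TDP-43 siRNA and ATP, 31, 14 and 15 counts with TDP-43 siRNA, and none in the scrambled libraries. Its level with TDP-43 siRNA and ATP was nearly the same in each library, at 0.611, 0.633 and 0.595 CPM, and it varied more with TDP-43 siRNA, at 1.28, 0.896 and 0.546 CPM. The groups with and without ATP overlapped. The means were 0.613 ± 0.0191 CPM with TDP-43 siRNA and ATP, at least 12.6-fold above the scrambled limit, and 0.909 ± 0.369 CPM with TDP-43 siRNA, at least 18.7-fold above it (SD, n = 3 each).

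Coro2a, the coronin, had 15, 9 and 9 counts with TDP-43 siRNA and ATP, 22, 25 and 10 counts with TDP-43 siRNA, and none with scrambled siRNA. It was the only gene of the 7 that entered through TDP-43 siRNA alone, and it missed the minimum with ATP by 1 count in each of 2 libraries. Its means were 0.412 ± 0.127 CPM with TDP-43 siRNA and ATP and 0.958 ± 0.619 CPM with TDP-43 siRNA (SD, n = 3 each), and the libraries of these groups overlapped.

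Kcnj6, the GIRK2 channel gene, had 15, 27 and 31 counts with TDP-43 siRNA and ATP, 25, 26 and 6 counts with TDP-43 siRNA, and none with scrambled siRNA. Its mean was 0.938 ± 0.446 CPM with TDP-43 siRNA and ATP and 0.972 ± 0.724 CPM with TDP-43 siRNA (SD, n = 3 each). TDP-43 siRNA replicate 3, with 0.218 CPM, kept it from entering through that group as well, and the highest library there stood 7.62-fold above the lowest.

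Nxpe1 had 16, 23 and 12 counts with TDP-43 siRNA and ATP, 26, 5 and 4 counts with TDP-43 siRNA, and none with scrambled siRNA. The libraries with ATP were close together, while without ATP replicate 1 held most of the reads. Its means were 0.618 ± 0.0968 CPM with TDP-43 siRNA and ATP and 0.514 ± 0.495 CPM with TDP-43 siRNA (SD, n = 3 each). Slc17a3, the kidney anion transporter gene, had 18, 14 and 12 counts with TDP-43 siRNA and ATP, 14, 5 and 12 counts with TDP-43 siRNA, and none with scrambled siRNA. Its means were 0.546 ± 0.102 CPM with TDP-43 siRNA and ATP, at least 11.3-fold above the scrambled limit, and 0.446 ± 0.130 CPM with TDP-43 siRNA, at least 9.19-fold above it (SD, n = 3 each). These were the lowest at-least folds among the 7 genes for TDP-43 siRNA, and Coro2a, at least 8.5-fold, had the lowest with ATP.

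**Figure D1:**
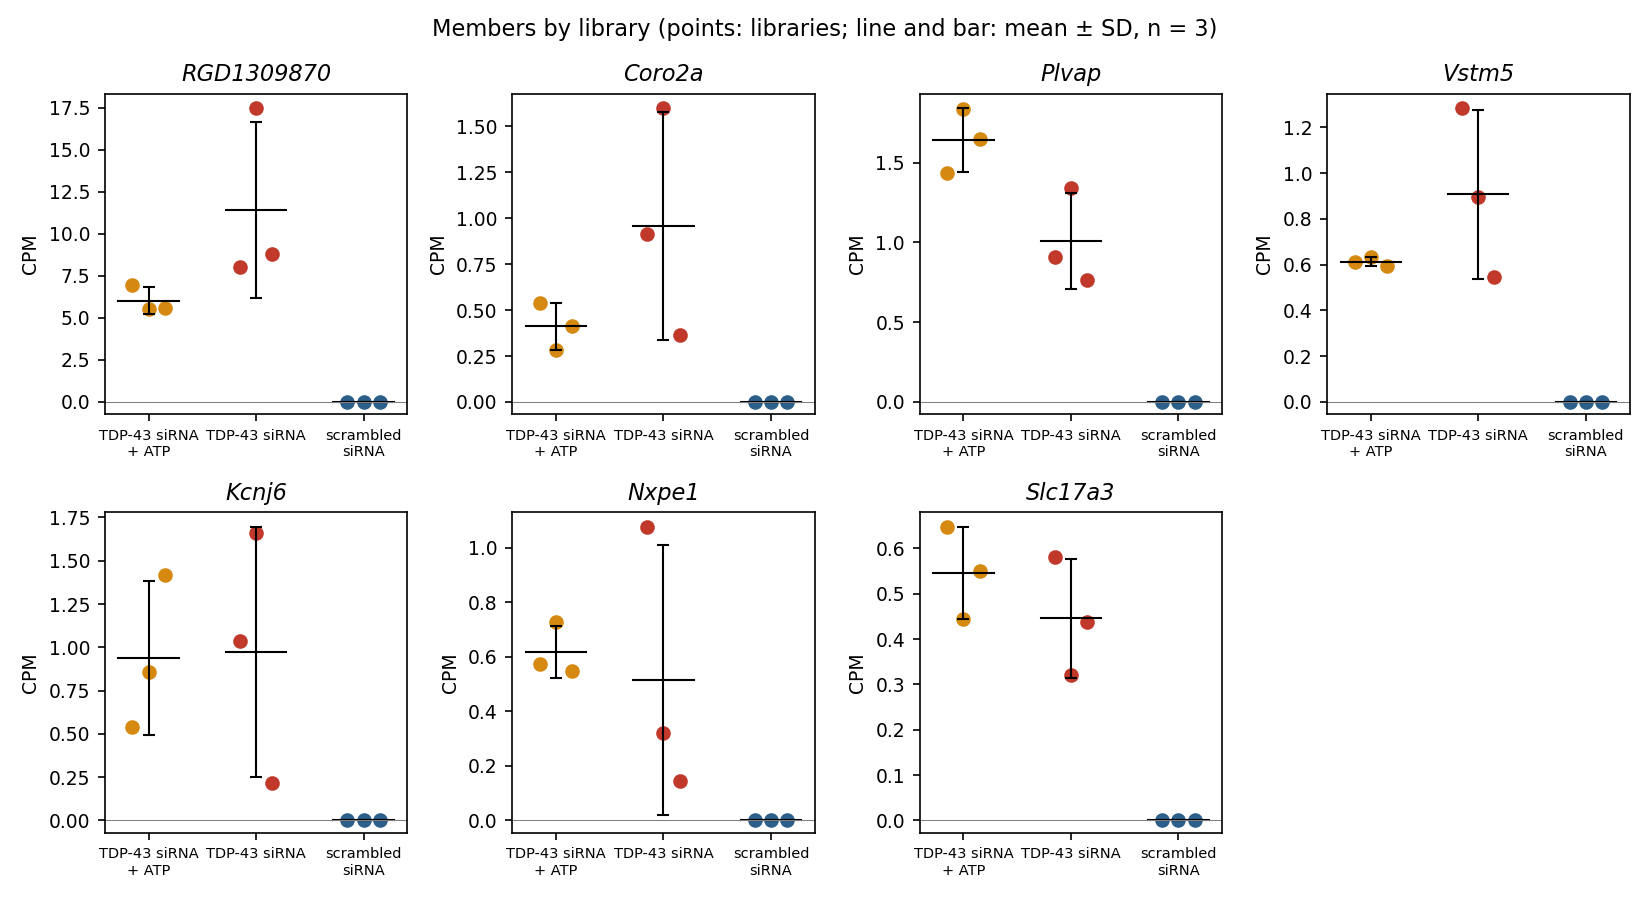
Level of each of the 7 genes in CPM (vertical axis) in the 3 libraries of each group, with TDP-43 siRNA and ATP left, TDP-43 siRNA in the middle and scrambled siRNA right; points are libraries, and the line and bar are the mean ± SD. Every scrambled library is at 0, and RGD1309870 reaches 17.5 CPM in 1 TDP-43 siRNA library.

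The ratio of the highest to the lowest replicate library differed between the genes. With TDP-43 siRNA, the highest library exceeded the lowest 7.62-fold for Kcnj6, 7.40-fold for Nxpe1 and 4.39-fold for Coro2a, but 1.76-fold for Plvap and 1.81-fold for Slc17a3. With TDP-43 siRNA and ATP the same ratio ran from 1.06 for Vstm5 to 2.64 for Kcnj6. The rule used these same counts, so the ratios are a description and not a trait of the genes. Kcnj6 and Nxpe1 entered through the group with ATP only, because a library without ATP fell short of the minimum. In a qualifying group the minimum kept lower counts out. Counts were also low for all but RGD1309870, and counting error was not separated from other spread. For all but RGD1309870 and Slc17a3, the library with the lowest CPM with TDP-43 siRNA was replicate 3, which was the deepest of that group.

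All 7 genes passed edgeR's filter on low counts through the groups where they are high. All were called higher with TDP-43 siRNA and ATP, where 17.4% of the 12096 tested genes were, and with TDP-43 siRNA, where 16.2% were. The choice of the genes, and their passing the filter only through the groups where they are high, fixed these counts, and nothing is read from them. The 2 comparisons share the scrambled libraries. Among all tested genes, 11 had no scrambled count, and 0 had no count in the TDP-43 siRNA group or in the TDP-43 siRNA and ATP group. The 11 include the 7 genes described here. A gene silent with scrambled siRNA could pass the filter through the libraries of both knockdown groups. The scrambled group was also the shallowest on the TMM scale, so nothing is read from this difference.

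The rule's edges were close on both sides. Inside, the lowest minimum of the qualifying group was 10 counts for Coro2a, and 12 for Nxpe1 and Slc17a3. Just outside, 23 genes had no scrambled count and a lowest library of 5 to 9 counts. Sytl5, a synaptotagmin-like gene of vesicle transport, came nearest with 16, 10 and 9 counts with TDP-43 siRNA and ATP, 6, 0 and 1 counts with TDP-43 siRNA, and none with scrambled siRNA. Bhlha15, which encodes a transcription factor of secretory cells, had 12, 16 and 6 counts with TDP-43 siRNA and ATP, 7, 9 and 8 counts with TDP-43 siRNA and none with scrambled siRNA. Another 8 genes reached the minimum but had 1 to 3 scrambled reads in all. Adgrf3, an adhesion G protein-coupled receptor gene, had 47, 55 and 35 counts with TDP-43 siRNA and ATP, 40, 53 and 39 counts with TDP-43 siRNA, and 0, 0 and 3 counts with scrambled siRNA. It was high in every knockdown library, and 3 reads in scrambled replicate 3 kept it out of the set. Gp1ba, a platelet adhesion receptor gene, had 35, 41 and 39 counts with TDP-43 siRNA and ATP, 17, 4 and 11 counts with TDP-43 siRNA, and 0, 0 and 3 counts with scrambled siRNA.

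**Figure D2:**
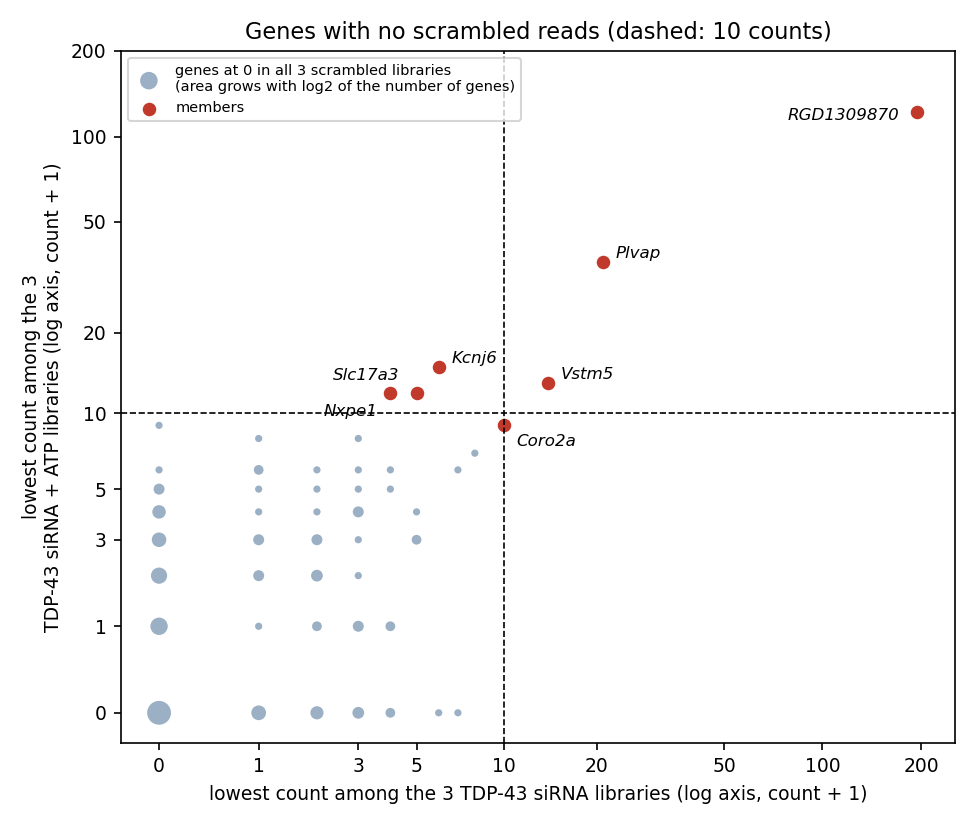
Lowest count among the 3 libraries with TDP-43 siRNA (horizontal axis) and with TDP-43 siRNA and ATP (vertical axis), both on a log axis of the count plus 1, for the 3937 genes with no scrambled count; grey area grows with the log2 of the number of genes and the 7 that met the rule are red. Dashed lines mark 10 counts: RGD1309870, Plvap and Vstm5 lie past both, and the other 4 on or past 1.

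The mirror of the rule, at least 10 counts in each scrambled library and none in a whole knockdown group, was met by 0 genes. With a minimum of 5 counts the rule found 30 genes and its mirror 1, and with a minimum of 20 counts 2 and 0. The same count is not the same level on both sides, so these numbers are not directly comparable. A count of 10 is 0.317 to 0.640 CPM in the knockdown libraries. In scrambled replicates 1, 2 and 3 it is 0.269, 0.975 and 0.689 CPM. Ahsp, a hemoglobin chaperone gene, came nearest to the mirror, with 0, 0 and 2 counts with TDP-43 siRNA and ATP, 7, 4 and 0 counts with TDP-43 siRNA, and 21, 26 and 13 counts with scrambled siRNA. Among 1275 repeat elements counted in the same poly(A) libraries, 52 had no scrambled count and 1 met the rule. It was MLT1I-int, named after its values were seen, with 13, 17 and 26 counts with TDP-43 siRNA and ATP, 14, 6 and 4 counts with TDP-43 siRNA, and none with scrambled siRNA; the repeat table's total for scrambled replicate 1 was 3.3 M. In the immunoprecipitation libraries, 0 of 1275 elements met it in input RNA and 0 in J2-bound RNA.

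Whether ATP changed the genes could be tested for RGD1309870, Plvap and Vstm5, which reached the minimum in both knockdown groups, so that the rule favoured neither. In this comparison 0.926% of all tested genes were called higher and 0.141% lower with ATP (1.07% in either direction), and edgeR called 0 of these 3 genes. RGD1309870 had a log2 fold change of -0.91 (SE 0.29, edgeR adjusted p = 0.159), lower in 3 of 3 libraries with ATP than in any without; its unadjusted edgeR p of 0.00671 was the only one of the 3 under 0.05. Plvap had a log2 fold change of 0.73 (SE 0.50, edgeR adjusted p = 0.621), higher in 3 of 3 libraries with ATP than in any without. Groups that do not overlap were common in this comparison: 13.0% of tested genes lay wholly higher and 12.7% wholly lower with ATP. Vstm5 had a log2 fold change of -0.56 (SE 0.60, edgeR adjusted p = 0.793), and its groups overlapped. DESeq2 gave RGD1309870 an adjusted p of 0.0631 and did not call it, and it gave Plvap and Vstm5 no adjusted p. For the genes that entered through 1 group the difference is a description: -1.17 (SE 0.70) for Coro2a, -0.02 (SE 0.71) for Kcnj6, 0.25 (SE 0.75) for Nxpe1 and 0.27 (SE 0.66) for Slc17a3 on the log2 scale. Each standard error for these 4 was at least 0.66.

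The neighbours of the 7 genes on the chromosome were not used by the rule and were tested. Of 14 neighbours, 1 on each side of each gene, 10 passed the filter. Among them 2 rose and 1 fell in either knockdown group against scrambled siRNA, where 17.4% of all tested genes rose and 37.4% moved in either direction with TDP-43 siRNA and ATP, and 16.2% rose and 34.3% moved in either direction with TDP-43 siRNA. Their median log2 fold change was 0.30 with ATP and 0.24 without, against medians of 0.01 over all genes in each. Between the group with ATP and the group without, 0 of the 10 passed in either direction by edgeR, 0 had an unadjusted edgeR p under 0.05, and DESeq2 called 0.

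Gtpbp3, a mitochondrial tRNA-modifying GTPase gene next to Plvap, rose in both knockdown groups. It had 586, 646 and 369 counts with TDP-43 siRNA and ATP, 450, 284 and 489 counts with TDP-43 siRNA, and 200, 54 and 71 counts with scrambled siRNA. In CPM this was 19.5 ± 2.25 with TDP-43 siRNA and ATP, 18.2 ± 0.425 with TDP-43 siRNA and 5.18 ± 0.255 with scrambled siRNA (SD, n = 3 each). The log2 fold change was 1.91 (SE 0.15, edgeR adjusted p = 2.59e-07) with ATP and 1.81 (SE 0.15, edgeR adjusted p = 4.90e-07) without, and all libraries of both knockdown groups lay above the scrambled ones. Plvap and Gtpbp3 lie on opposite strands with their ends facing each other in RefSeq. The sources used here do not say whether counting used strand, so reads running past the end of one cannot be told apart from reads of the other. For every 100 Gtpbp3 counts there were 6.83, 8.98 and 9.76 Plvap counts with TDP-43 siRNA and ATP, 4.89, 7.39 and 4.29 with TDP-43 siRNA, and 0 of 325 with scrambled siRNA, which allows up to 0.923. The Plvap counts behind these ratios are those that chose the gene, so they are a description, and the part of Gtpbp3 reads in them was not tested.

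Dyrk1a, a kinase gene next to Kcnj6, rose by 0.36 on the log2 scale (SE 0.10, edgeR adjusted p = 0.0123) with TDP-43 siRNA and ATP and by 0.44 (SE 0.10, edgeR adjusted p = 0.00431) with TDP-43 siRNA. Without TDP-43 siRNA and ATP replicate 1 the first of these no longer passed (edgeR adjusted p = 0.0623). Rexo2, an oligoribonuclease gene next to Nxpe1, fell by 0.51 (SE 0.10, edgeR adjusted p = 9.69e-04) with ATP and by 0.45 (SE 0.10, edgeR adjusted p = 0.00297) without. On its other side Fam55b, a relative of Nxpe1 named Nxpe4 in RefSeq, had 73, 76 and 56 counts with TDP-43 siRNA and ATP, 53, 66 and 58 counts with TDP-43 siRNA, and 71, 2 and 37 counts with scrambled siRNA. It did not pass (log2 0.63 with ATP, edgeR adjusted p = 0.354; 0.77 without, adjusted p = 0.259), and scrambled replicate 2 stood apart with its 2 counts.

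RGD1309870 overlaps Zpbp, a sperm acrosome gene on the opposite strand, and a long noncoding RNA. Zpbp had 15, 10 and 11 counts with TDP-43 siRNA and ATP, 12, 9 and 10 counts with TDP-43 siRNA, and 6, 5 and 5 counts with scrambled siRNA. Unlike RGD1309870 it was present in the scrambled libraries, and it did not pass (log2 0.61 with ATP, edgeR adjusted p = 0.535; 0.68 without, adjusted p = 0.496). Coro2a, Plvap and Kcnj6 also overlap annotated long noncoding RNAs. The 4 neighbours below the filter were low throughout. Hephl1, a copper oxidase gene next to Vstm5, had 9, 8 and 4 counts with TDP-43 siRNA and ATP, 5, 0 and 3 counts with TDP-43 siRNA and none with scrambled siRNA. Slc17a1, a phosphate and anion transporter gene next to Slc17a3, had 0 counts in all 9 libraries, and Slc17a2 on the other side and Kcnj15 next to Kcnj6 had 1 count each over all 9.

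**Figure D3:**
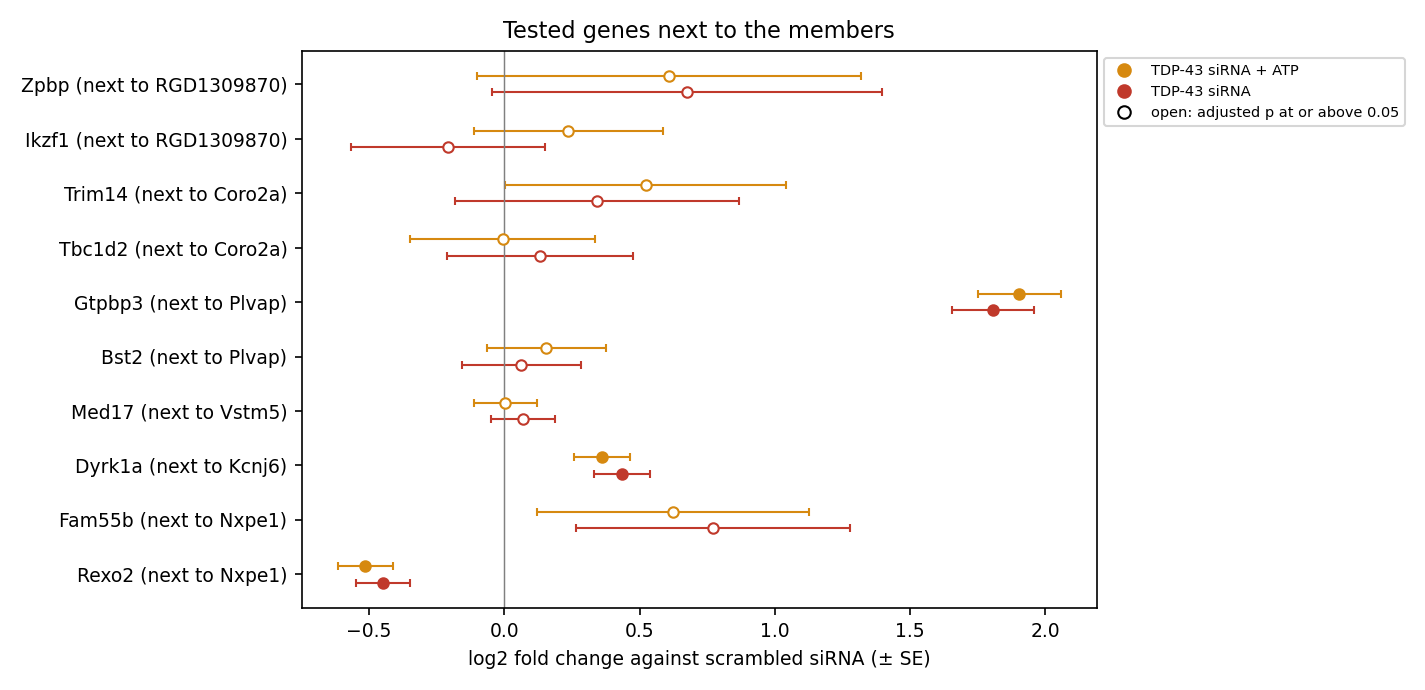
Log2 fold change against scrambled siRNA (horizontal axis, ± SE, 3 libraries a group) of the 10 tested genes next to the 7, with TDP-43 siRNA and ATP above TDP-43 siRNA; open points had an adjusted p at or above 0.05. Gtpbp3 stands apart at 1.91 with ATP and 1.81 without.

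Relatives and partners of the 7 genes were also outside the rule. Their counts stand beside a background in which 17.4% of all 12096 tested genes rose and 2415 fell with TDP-43 siRNA and ATP, and 16.2% rose and 18.2% fell with TDP-43 siRNA against scrambled siRNA. For Coro2a, 0 of 5 other coronins passed edgeR in either direction (0 with an unadjusted p under 0.05, 0 by DESeq2), with medians of -0.16 with ATP and -0.20 without.

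For Kcnj6, 8 of 14 other inward rectifier genes passed the filter, with 1 higher and 1 lower in each knockdown group and medians of -0.13 with ATP and -0.42 without. Kcnj14, which encodes Kir2.4, rose to 10.8 ± 1.27 CPM with TDP-43 siRNA and ATP and 8.19 ± 0.920 CPM with TDP-43 siRNA, against 3.99 ± 1.26 CPM with scrambled siRNA (SD, n = 3 each; log2 1.39 with ATP, edgeR adjusted p = 1.83e-04, and 0.99 without, adjusted p = 0.00314). Kcnj10, the main Kir channel gene of astrocytes, fell by 0.44 with TDP-43 siRNA (edgeR adjusted p = 0.0334), a call lost in 7 of 10 alternatives. With ATP, the gene that fell was Kcnj13 (log2 -1.56, edgeR adjusted p = 0.0161), a call kept in 6 of 10 alternatives. The other GIRK genes did not pass or were below the filter. Kcnj9 had 137, 167 and 124 counts with TDP-43 siRNA and ATP, 104, 102 and 116 counts with TDP-43 siRNA, and 99, 62 and 49 counts with scrambled siRNA (log2 0.45 with ATP, edgeR adjusted p = 0.253, and 0.36 without, adjusted p = 0.379). Unlike Kcnj6 it was present in every library. Kcnj3 had 0, 5 and 1 counts with TDP-43 siRNA and ATP, 4, 0 and 1 counts with TDP-43 siRNA, and 0, 0 and 8 counts with scrambled siRNA.

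For Vstm5, 1 of 2 tested relatives fell: Vstm4, to 17.7 ± 0.167 CPM with TDP-43 siRNA and ATP and 14.9 ± 1.55 CPM with TDP-43 siRNA, against 35.3 ± 1.68 CPM with scrambled siRNA (SD, n = 3 each; log2 -0.99 with ATP, edgeR adjusted p = 1.86e-05, and -1.24 without, adjusted p = 2.69e-06). The list's medians were -0.79 with ATP and -0.97 without. Of 2 tested relatives of Nxpe1 and 3 of Slc17a3, 0 passed edgeR in either knockdown group (0 with an unadjusted p under 0.05, 0 by DESeq2). Their medians were 0.49 with ATP and 0.55 without for the NXPE genes, and 0.41 with ATP and -0.04 without for the SLC17 genes, of which Slc17a1 and Slc17a8 had 0 counts in all 9 libraries.

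For Plvap, 8 of 9 caveola genes in the table were tested: 2 rose and 3 fell with TDP-43 siRNA and ATP (17.4% and 2415 of 12096 over all genes), and 0 rose and 3 fell with TDP-43 siRNA (16.2% and 18.2% over all genes) (medians 0.10 with ATP, -0.26 without; 0 higher without ATP also at an unadjusted edgeR p under 0.05 and by DESeq2). Cav3, the muscle-type caveolin that astrocytes also make, fell to 6.53 ± 0.918 CPM with ATP and 4.30 ± 1.17 CPM without, against 40.3 ± 4.22 CPM with scrambled siRNA (SD, n = 3 each; log2 -2.61 with ATP, edgeR adjusted p = 7.11e-08, and -3.20 without, adjusted p = 1.50e-08). Prkcdbp, which encodes cavin-3, fell by 0.91 with ATP (edgeR adjusted p = 1.77e-04) and by 0.72 without (edgeR adjusted p = 0.00127). Cav1 rose by 0.48 (edgeR adjusted p = 0.00689) and Ehd2 by 0.47 (edgeR adjusted p = 0.00444) with ATP. Between the groups with and without ATP, edgeR called 0 of the 8 caveola genes, where it called 0.926% of all tested genes higher. DESeq2 called 3 of the 8, all higher with ATP, where it called 270 genes higher and 166 lower over all genes. An unadjusted edgeR p under 0.05 was seen for 5 of the 8, all higher with ATP. The share of all genes at that threshold was not counted, so nothing is read from the 5. The median log2 fold change of the 8 was 0.42, and Prkcdbp, Sdpr and Pacsin2 had estimates below 0. Of 8 tested endothelial markers, 0 rose and 2 fell with ATP, and 1 rose and 2 fell without (medians -0.05 with ATP and 0.09 without; 0 higher with ATP also at an unadjusted edgeR p under 0.05 and by DESeq2). The summed level of the 14 markers found ran from 26.1 to 30.9 CPM with TDP-43 siRNA and ATP, from 30.6 to 33.1 CPM with TDP-43 siRNA, and from 33.9 to 36.1 CPM with scrambled siRNA. Kdr, the main receptor of vascular endothelial growth factor, fell to 3.62 ± 0.443 CPM with ATP and 2.92 ± 0.424 CPM without, against 9.68 ± 1.13 CPM with scrambled siRNA (SD, n = 3 each; log2 -1.41 with ATP, edgeR adjusted p = 1.52e-04, and -1.72 without, adjusted p = 3.31e-05). Vwf fell by 1.20 with ATP (edgeR adjusted p = 0.0139) and by 1.19 without (edgeR adjusted p = 0.0175), and the angiopoietin receptor gene Tek rose by 1.03 without (edgeR adjusted p = 0.0405, lost in 5 of 10 alternatives). Each Vwf call was kept in 9 of 10 alternatives. With ATP the edgeR adjusted p of Vwf was 0.0713 when replicate 3 of that group was left out. Without ATP it was 0.0547 when replicate 2 of the TDP-43 siRNA group was left out. The junction gene Cldn5 and the transcription factor gene Sox17 had 0 counts in all 9 libraries. Col1a2, a fibroblast marker, also had 0 counts in all 9, while Col1a1 had a mean of 1008 CPM with scrambled siRNA. A 0 in every library therefore need not mean an absent transcript, for these or other genes. No library's summed endothelial level with knockdown exceeded a scrambled one, but this order rests on Kdr and does not hold for the other markers summed.

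For Slc17a3, the kidney proximal tubule markers split: of 5 tested, 2 rose and 3 fell with ATP, where 2415 of all 12096 genes fell, and 2 rose and 2 fell without, where 18.2% fell (medians -0.60 with ATP and -0.37 without). The urate transporter gene Slc22a12 rose to 4.66 ± 0.536 CPM with ATP and 4.07 ± 1.27 CPM without, against 1.47 ± 0.890 CPM with scrambled siRNA (SD, n = 3 each; log2 1.84 with ATP, edgeR adjusted p = 0.00422, and 1.66 without, adjusted p = 0.00938). Lrp2, the megalin gene, fell to 42.6 ± 3.53 CPM with ATP and 39.9 ± 4.79 CPM without, against 129 ± 36.9 CPM with scrambled siRNA (log2 -1.59 with ATP, edgeR adjusted p = 5.33e-06, and -1.68 without, adjusted p = 3.48e-06). The summed level of the 9 markers was 104 to 121 CPM with ATP, 88.5 to 97.6 CPM without and 202 to 262 CPM with scrambled siRNA, and Slc22a6 and Umod had 0 counts throughout. Lrp2 and Aqp1 made up most of that sum. Aqp1 had 53.6 ± 9.9 CPM with ATP, 36.3 ± 6.3 CPM without and 88.5 ± 15.3 CPM with scrambled siRNA (SD, n = 3 each). The 2 that rose, Slc22a12 and Slc5a2, were low beside them, and the Slc5a2 call with ATP was kept in 5 of 10 alternatives.

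**Figure D4:**
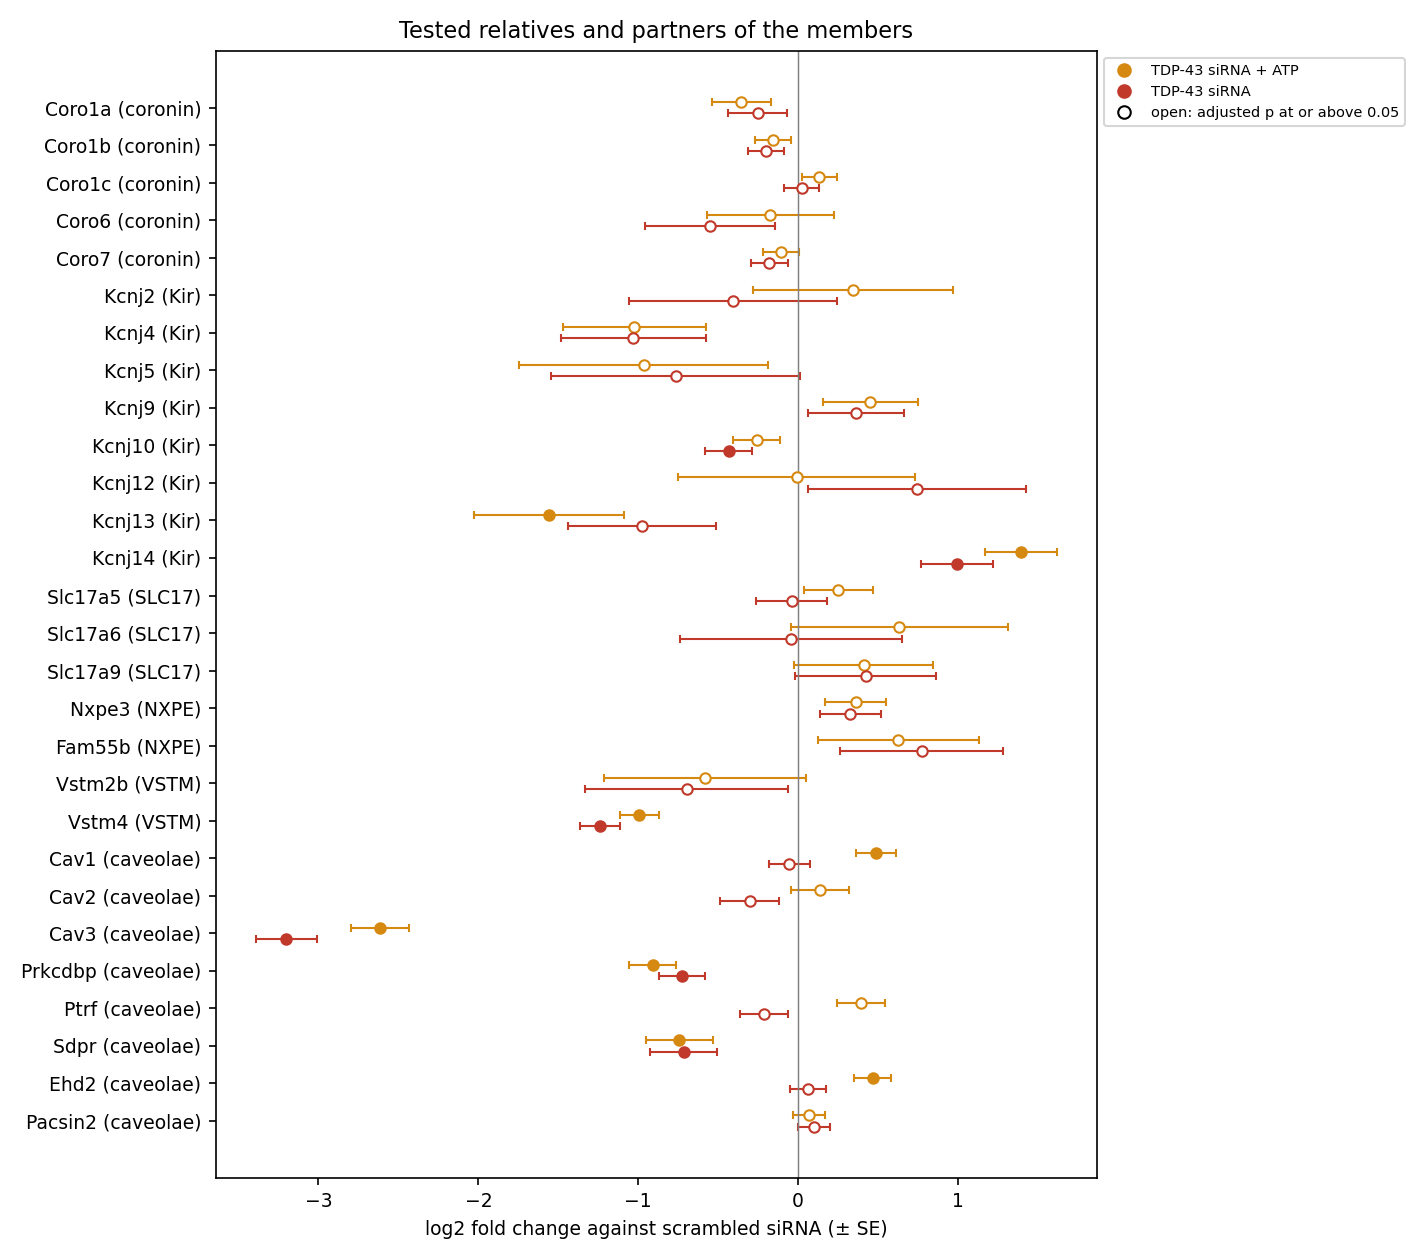
Log2 fold change against scrambled siRNA (horizontal axis, ± SE, 3 libraries a group) of tested family members and partners of the 7 genes, with TDP-43 siRNA and ATP above TDP-43 siRNA; open points had an adjusted p at or above 0.05. Cav3 stands farthest to the left, at -2.61 with ATP and -3.20 without, and Kcnj14 among the highest, at 1.39 with ATP and 0.99 without.

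Markers of the culture's cell types were read against the label, beside the same background: 17.4% of tested genes higher and 2415 of 12096 lower with ATP, and 16.2% higher and 18.2% lower without. Astrocyte markers were abundant, with sums of 4839 to 5577 CPM with TDP-43 siRNA and ATP, 4272 to 5350 CPM with TDP-43 siRNA and 5599 to 6780 CPM with scrambled siRNA; of 10, 1 rose and 4 fell with ATP, and 1 rose and 5 fell without. Gfap, the astrocyte filament gene, did not pass (log2 0.05 with ATP, edgeR adjusted p = 0.821, and -0.10 without, adjusted p = 0.678). Fibroblast and mural markers were lower as a sum, at of 6316 to 6908 CPM with ATP, 5723 to 8236 CPM without and 21530 to 22970 CPM with scrambled siRNA, and with 1 of 8 tested higher and 6 lower in each group. Tagln, a smooth muscle actin-binding gene, made up most of that sum, at 5002 ± 298 CPM with ATP, 5502 ± 976 CPM without and 17870 ± 544 CPM with scrambled siRNA (SD, n = 3 each). Of 9 microglia markers 2 rose and 3 fell with ATP, and 0 rose and 3 fell without (0 higher without ATP also at an unadjusted edgeR p under 0.05 and by DESeq2), with sums of 248 to 312 CPM with ATP, 231 to 262 CPM without and 319 to 342 CPM with scrambled siRNA. Of 10 oligodendrocyte lineage markers 2 rose and 1 fell with ATP, and 3 rose and 3 fell without, with sums of 374 to 435 CPM with ATP, 315 to 390 CPM without and 345 to 426 CPM with scrambled siRNA. Of 9 tested neuron markers 2 rose and 2 fell with ATP, and 3 rose and 2 fell without, with sums of 531 to 604 CPM with ATP, 495 to 601 CPM without and 537 to 675 CPM with scrambled siRNA. The part of these cell types in the 7 genes' levels was not tested.

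Outside the rule, the genes whose profile was most like the mean of the 7 over the 9 poly(A) libraries were Pipox, Orc1, Fubp1, Meis2 and Tgs1, with Pearson r of 0.989 to 0.993 in log2 CPM. All 9 points share the contrast of knockdown with scrambled libraries, and 728 of 12089 genes had r above 0.9, so the likeness is a description. None of these 5 was silent in the controls. Pipox, a peroxisomal oxidase gene, had 483, 597 and 345 counts with TDP-43 siRNA and ATP, 476, 308 and 395 counts with TDP-43 siRNA, and 234, 63 and 100 counts with scrambled siRNA. Its level was 17.4 ± 1.55 CPM with ATP, 17.9 ± 3.08 CPM without and 6.45 ± 0.396 CPM with scrambled siRNA (SD, n = 3 each), and it had reads in every scrambled library.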

How the data were processed

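Counts of reads per gene symbol in 9 poly(A) libraries, and of repeat elements by name in those 9 and 12 total RNA libraries, were deposited by the authors as raw counts, per the file headers. Trimmomatic, TopHat2, Bowtie2, DESeq2 and the build rn6 are listed, without version or role, per the submitters' processing notes. The counter, strand use and handling of multi-mapped reads were not given in the sources used here. Counts of overlapping or near-identical genes are therefore uncertain. Genes of the 12 total RNA libraries were not analysed here.

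Of 17337 table entries, 26 with a calendar date in place of a symbol were dropped (0.286 to 0.331% of counts), and 16921 of the remaining 17311 symbols matched a RefSeq gene table of GRCr8, used for names, strands and neighbours. Promoter sequences are also from RefSeq, GRCr8. Poly(A) gene counts were tested with edgeR 4.0.16 in R 4.3.3 (filterByExpr, TMM factors, glmQLFit and glmQLFTest, 1 mean for each of the 3 groups, all 9 libraries, Benjamini-Hochberg adjustment over 12096 genes, threshold 0.05), after trials on simulated data. Standard errors are the log2 fold change divided by the root of its F statistic, and CPM are on TMM-scaled totals. No 2 libraries of a group agreed within sampling noise (chi-square divided by its degrees of freedom was 11.4 or more). Alternatives were DESeq2 1.42.0, RLE and total-count scaling, no filter, a fit of the compared libraries alone, a block for replicate number, leaving out each library and other settings of the rule.

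The 7 genes and all gene lists were chosen with earlier results of these data known. The lists were coronins, inward rectifiers, SLC17, NXPE and VSTM families, caveolae, and markers of endothelium, astrocytes, microglia, oligodendrocyte lineage, neurons, fibroblasts and mural cells, and proximal tubule. Named besides the 7 were Tardbp, the nearest genes on each side, up to 3 genes of each list that passed (by size of change) and relatives singled out for a family, up to 10 genes just outside the rule or nearest its mirror, and the 5 most alike in profile; not all that this allows are printed. The endothelial marker Slco1a4 was found under the symbol Slco1a2, which may be a paralog. One further list of partner genes is not reported here.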

Additional observations from a re-analysis of the deposited data

How the results depend on the processing

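The number of genes found by the rule depended on its settings. A minimum of 5 counts gave 30, a minimum of 20 gave 2, up to 3 scrambled counts in all gave 15, and both knockdown groups gave 3. With each library left out in turn it gave 7 to 25, with 25 without scrambled replicate 1 and 25 without scrambled replicate 3. It gave 12 without TDP-43 siRNA replicate 2 and 13 without TDP-43 siRNA and ATP replicate 3. Leaving out a library removes 1 of the rule's conditions, so the number could only stay or rise. Between TDP-43 siRNA with ATP and without it, 129 genes were called; DESeq2 called 436, the compared libraries alone 817, and leaving out each library gave 21 to 53. Same-numbered libraries did not deviate together (correlations -0.152 to 0.118, median -0.0692, over 9 pairs). No pairing by number was seen, but with 3 libraries a group a weak one could be missed. A replicate block left 68 calls with ATP against without, 4056 with ATP against scrambled siRNA and 3589 for TDP-43 siRNA against scrambled siRNA. Leaving out each library gave 3240 to 4783 calls against scrambled siRNA with ATP and 3087 to 4431 without. Under total-count scaling the median log2 change over all genes was 0.24 with ATP and 0.18 without, with 4099 higher and 1400 lower with ATP, and 3427 higher and 1436 lower without, so a direction here means relative to most genes. The cause was not tested. Over 12 alternatives the log2 change of RGD1309870 with ATP ran from -1.11 to -0.48 (adjusted p 0.0502 to 0.564, by edgeR or DESeq2), that of Plvap from 0.56 to 0.97 (0.256 to 0.932) and that of Vstm5 from -0.83 to -0.20 (0.537 to 0.971), with 0 calls. For Plvap and Vstm5 only 11 of the 12 gave an adjusted p, as DESeq2 gave none. Kcnj6 ran from -0.52 to 0.58 and Nxpe1 from -0.22 to 1.47, its highest value being that without TDP-43 siRNA replicate 1. Depth limits most of the genes: all but RGD1309870 have at most 58 counts in any library.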
